A study of Caenorhabditis elegans with 32 samples.

Results

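H3K27ac was compared along the whole genome between early embryos of the met-2 deletion strain, met-2(n4256) III (met-2Δ), and embryos of the wild-type strain N2 (Bristol; WT), both kept at 20 °C. The genotypes are compared in 12 of the 32 libraries of the series, chosen by genotype, antibody and temperature. These are 3 H3K27ac immunoprecipitated (IP) libraries and 3 input libraries (sheared chromatin sequenced without antibody) from each genotype. The remaining H3K27ac libraries came from embryos with a catalytically deficient MET-2 (met-2-CD) at 20 °C and from WT embryos exposed to 37 °C, and their IP libraries enter the fit through its estimate of the spread. A further 8 libraries measured H3K9me2 in WT. Of these 8, only the WT libraries kept at 20 °C are used here, as a map of where H3K9me2 lies in WT. The unit of comparison is a 500-bp window of the ce10 genome. Of 200551 nuclear windows, 196112 reached a mean of 10 scaled input reads and were tested.

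MET-2 is the worm homologue of the mammalian methyltransferase SETDB1 and deposits mono- and dimethylation on lysine 9 of histone H3 (H3K9me2), a mark of heterochromatin. In C. elegans this mark is concentrated on the distal arms of the 5 autosomes, which are rich in repeats, and is sparse in the gene-dense chromosome centres. H3K27ac is an acetylation of histone H3 found at active promoters and enhancers and generally scarce in heterochromatin. Whole embryos were used, so a higher level in a window cannot be told apart from more cells carrying the mark.

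The IP libraries held between 30633968 and 36470940 reads in met-2Δ and between 19327992 and 26141674 in WT, and the input libraries between 21180014 and 65133682 in met-2Δ and between 16899918 and 23411210 in WT. Counts were scaled to a common total, and enrichment is log2 of IP over input, with 2 added to both. IP counts of the windows were compared with the quasi-likelihood test of edgeR, and windows were called gained or lost in met-2Δ when the p-value, adjusted by Benjamini-Hochberg, was under 0.01. The deleted locus matched the labels. The 2 adjacent windows chrIII:8376567-8377566 had 0 input reads in each met-2Δ library, against scaled means of 141 and 140 in WT. The labels do not say whether the replicates of a genotype came from separate cultures, and the methods of the study call them biological replicates. The p-values measure the spread between these libraries.

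Loss of MET-2 was accompanied by a small number of local gains of H3K27ac and few losses. The test called 285 windows gained (0.145% of all tested) and 55 lost (0.028%), and 15559 windows had an unadjusted p-value under 0.05, of which 9541 were higher and 6018 lower in met-2Δ. With any 1 library left out, between 100 and 234 windows were gained, the fewest without met-2Δ replicate 2. Fitting the libraries of the 2 genotypes alone gave 416 gained and 112 lost windows. When the change was tested for IP over input, which adds the spread of the input libraries, 20 gained and 2 lost windows passed. The log2 fold change (log2FC, met-2Δ over WT) of the gained windows had a median of 0.92 and lay between 0.74 and 2.37. Over all tested windows the median was 0.04 and 71.2% of windows lay within 0.25 of 0. Scaling to library totals holds this median near 0, so it cannot show whether H3K27ac changed uniformly across the genome. In all 285 gained windows each met-2Δ library lay above each WT library, an order seen in 9.36% of all tested windows. In 53 of the 55 lost windows each met-2Δ library lay below each WT library, against 5.48% of all. These libraries also made the calls, so both orders are a description only. Gained windows made up 83.8% of the calls with library totals, but 70.4% when libraries were scaled on windows outside H3K27ac regions and 69.9% with DESeq2's size factors.

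At some called windows the input differed as well. In the input libraries, 15 windows were higher (0.00765% of all tested) and 110 lower (0.0561%) in met-2Δ by the same test. These included 14 of the gained and 17 of the lost windows, which left 271 gained and 38 lost windows without a called input difference. Shares of called windows given from here on refer to these 309 windows unless stated. Among the 271, the median input log2FC was 0.01 and the IP log2FC had a median of 0.91, with 73 windows at 1 or more and 9 at 1.5 or more. Among the 38, the median input log2FC was -0.22, against -0.01 over all tested windows, a shift in the direction of the losses.

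The gained windows were close to input level in WT and moderately acetylated in met-2Δ. Their median enrichment was 0.63 in met-2Δ (quartiles 0.45 and 0.84) and -0.27 in WT (quartiles -0.46 and -0.10). In met-2Δ 265 of the 271 were above 0 but only 28 reached 1, the level used here to mark an H3K27ac window. In WT 0 reached 1 and 228 were below 0 (84.1%, against 71.7% of all tested windows). The same IP libraries made the calls, so these levels are a description.

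The gained window with the lowest p-value and no called input difference lay on the right arm of chromosome V, in chrV:15589409-15592408, a run of 6 adjacent gained windows 5.33 Mb from the chromosome end. The run held 1727, 2238 and 1566 scaled IP reads in the met-2Δ replicates, against 594, 850 and 652 in the WT replicates. The lowest met-2Δ library was thus above the highest WT library, and the mean was 2.64 times as high (1844 ± 351 in met-2Δ and 699 ± 134 in WT, SD, n = 3 each). Input reads in the run were 820, 881 and 784 in met-2Δ and 822, 771 and 886 in WT, and did not separate the genotypes. Its lead window, chrV:15590909-15591408, had a log2FC of 1.97 (SE 0.20 and adjusted p = 1.14e-14 in edgeR) and reached an enrichment of 1.60 in met-2Δ, against -0.26 in WT. The mean H3K9me2 enrichment of the run in WT was 0.31, below the level of 1 used here for H3K9me2 windows. At the lead window the 2 H3K9me2 replicates were apart, at -1.31 and 0.23.

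The ratio was larger in chrV:16927404-16928903, a run of 3 windows picked out after its values were seen. It held 549, 684 and 621 scaled IP reads in met-2Δ and 154, 202 and 243 in WT, 3.10 times as many in met-2Δ, with 1.12 times as many input reads.

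The right arm of chromosome V also carried 2 other runs of 6 windows. The run chrV:19770391-19773390, 1.15 Mb from the end, held 1032, 1033 and 945 scaled IP reads in met-2Δ and 447, 545 and 530 in WT. Its lead window had a log2FC of 1.14 (SE 0.18 and adjusted p = 3.15e-06 in edgeR). The run chrV:20483388-20486387, 0.44 Mb from the end, lay in strong H3K9me2 with a mean WT enrichment of 2.63, and held 1296, 1316 and 1188 reads in met-2Δ and 725, 770 and 666 in WT. The 3 met-2Δ libraries were above the 3 WT libraries in both runs, with mean input reads of 0.962 and 1.02 times those of WT. The lead window of the distal run, chrV:20483888-20484387, had the smaller log2FC of 0.90 (SE 0.17 and adjusted p = 3.92e-04 in edgeR) and passed in 5 of the 6 fits with 1 library less.

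Gains of similar size were found on the arms of other autosomes. On the left arm of III, the 5 windows chrIII:3428589-3431088 held 944, 1150 and 944 scaled IP reads in met-2Δ and 545, 507 and 579 in WT. On the right arm of II, the 4 windows chrII:12175462-12177461 held 1038, 1253 and 945 reads in met-2Δ and 452, 382 and 538 in WT, and lay in H3K9me2 of 1.96. The lead window of that run, chrII:12175962-12176461, had a log2FC of 1.69 (SE 0.19 and adjusted p = 3.90e-11 in edgeR). No met-2Δ library overlapped the WT range in either run. On the right arm of I, 3 runs of 4 windows at chrI:11016954-11018953, chrI:11683951-11685950 and chrI:13401444-13403443 held 2.06, 2.08 and 1.94 times as many IP reads in met-2Δ as in WT, with WT H3K9me2 of 2.39, 1.07 and 1.5. The windows with the lowest p-value on III and IV, chrIII:377602-378101 and chrIV:16894772-16895271, 0.378 and 0.599 Mb from a chromosome end, had log2FC values of 1.13 (SE 0.17) and 1.23 (SE 0.17), with edgeR adjusted p-values of 3.47e-06 and 6.15e-08. For IP over input, the lead windows of the runs at chrV:15589409, chrV:19770391, chrII:12175462 and chrI:13401444 still passed in edgeR. Those of the other runs did not, with adjusted p-values of 0.0265 at chrV:20483888, 0.0875 at chrI:11017954, 0.141 at chrI:11685451 and 0.18 at chrIII:3430589, nor did the windows on III (0.0216) and IV (0.0197).

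**Figure D1:**
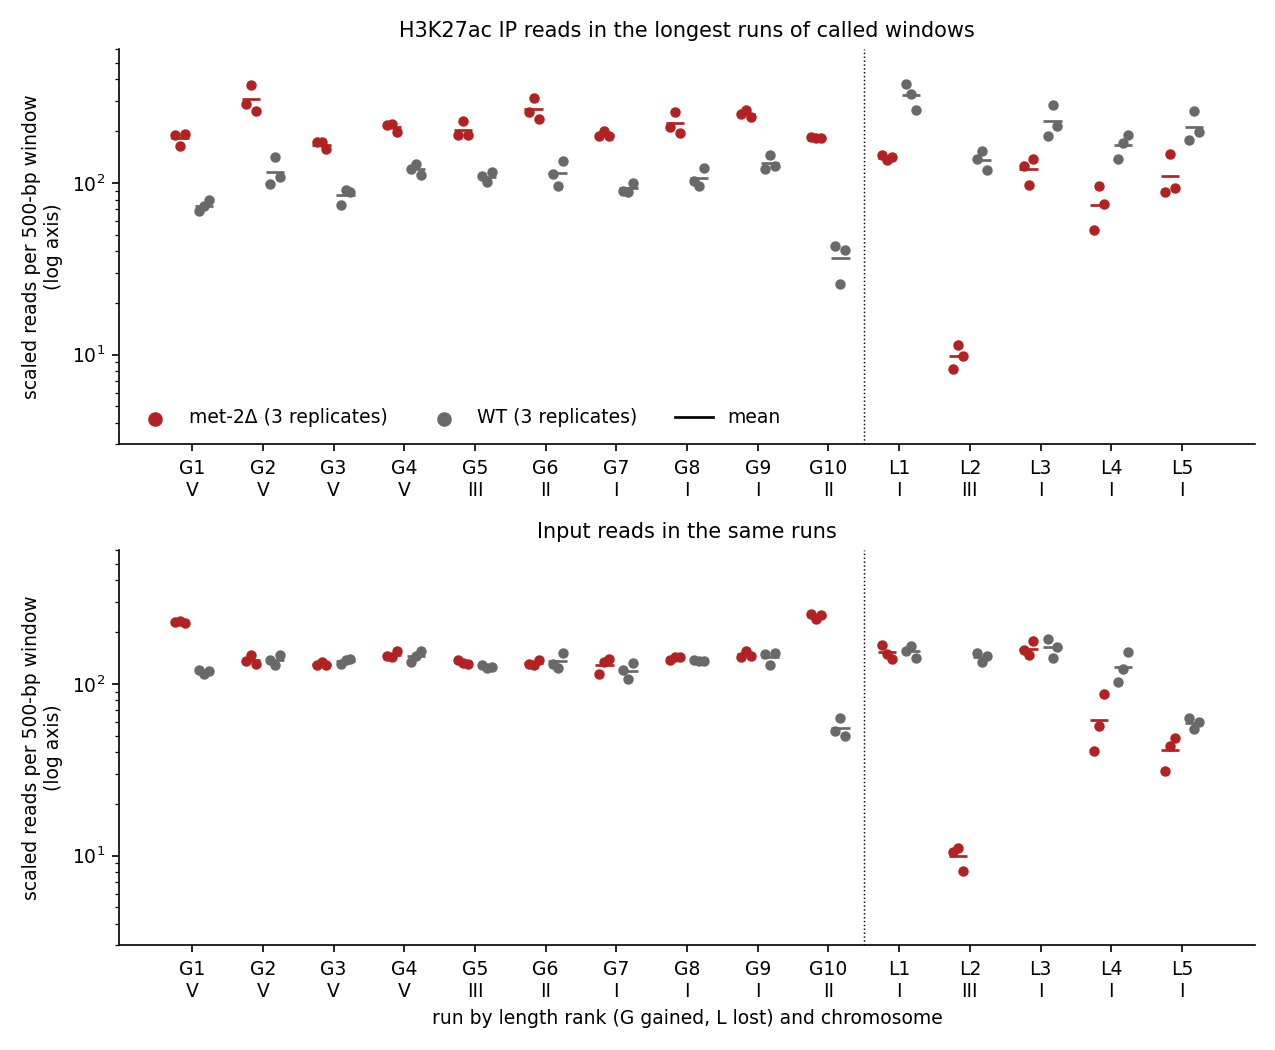
Scaled H3K27ac IP reads (top) and input reads (bottom) per 500-bp window on a log axis, in the 10 longest runs of gained windows (G1 to G10) and the 5 longest runs of lost windows (L1 to L5), with the chromosome below each. Points are the 3 replicates of met-2Δ (red) and WT (grey) and bars their means. The IP reads of the genotypes do not overlap in any run, but in G1, G5, G10, L2, L4 and L5 the input reads separate in the same direction.

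Of the 10 longest gained runs, 2 contained windows with a called input difference. In the run on III, chrIII:3428589-3431088, no window passed the input test, but input reads were also apart, with 692, 665 and 649 in met-2Δ and 641, 621 and 627 in WT (1.06 times as many in met-2Δ, against 1.86 times in IP). The longest run, the 12 windows chrV:17254402-17260401, held 2744, 2771 and 2723 scaled input reads in met-2Δ and 1450, 1368 and 1431 in WT, 1.94 times as many, and 11 of its windows passed the input test. Its IP reads were 2.49 times as high in met-2Δ. The 3 windows chrII:10122970-10124469, near the middle of chromosome II, held 4.48 times as many input reads and 5.04 times as many IP reads in met-2Δ. Its lead window chrII:10123470-10123969 had a log2FC of 2.35 in the IP libraries (SE 0.19 and adjusted p = 2.30e-21 in edgeR) and of -0.01 for IP over input (edgeR adjusted p = 0.997), so its IP reads were in step with its input.

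Gained windows clustered at the scale of about 1 kb, and the called windows did not join into long runs. The 271 windows fell into 170 runs of adjacent windows, of which 106 were single, 42 had 2 windows, 14 had 3 and 8 had 4 or more. In all 60.9% of the windows had a gained neighbour, and the longest run was 3000 bp. Adjacent windows can share fragments, so neighbouring calls are not independent. Allowing gaps of up to 2 kb joined them only to 157 groups. The median distance between successive runs was 159 kb, with 26 of 164 distances under 10 kb and 103 over 100 kb. The gained windows occupied 130 of 1005 100-kb bins, and 39 bins with 3 or more held 57.6% of them.

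The change around the runs faded within a few kilobases and was still above the genome-wide level at 10 kb. Median log2FC was 0.91 in the runs, 0.54 in the adjoining windows, 0.32 at 1 kb, 0.20 at 2 kb, 0.16 at 5 kb and 0.11 at 10 kb, against 0.04 over all tested windows. On autosome arms, where most gained windows lie, the median over tested windows was 0.07. It ran from 0.01 on the right arm of III to 0.14 on the right arm of V. The flanks were not compared with other windows of the same arm. At 10 kb, 69.2% of windows were above 0, against 56.2% of all tested windows. The correlation of log2FC between windows across the genome was likewise steep at first, with r = 0.51 at 0.5 kb, 0.31 at 1 kb, 0.17 at 5 kb, 0.12 at 10 kb and 0.05 at 50 kb. These are correlations across windows of the same libraries, and the mates of one fragment can fall in adjacent windows.

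**Figure D2:**
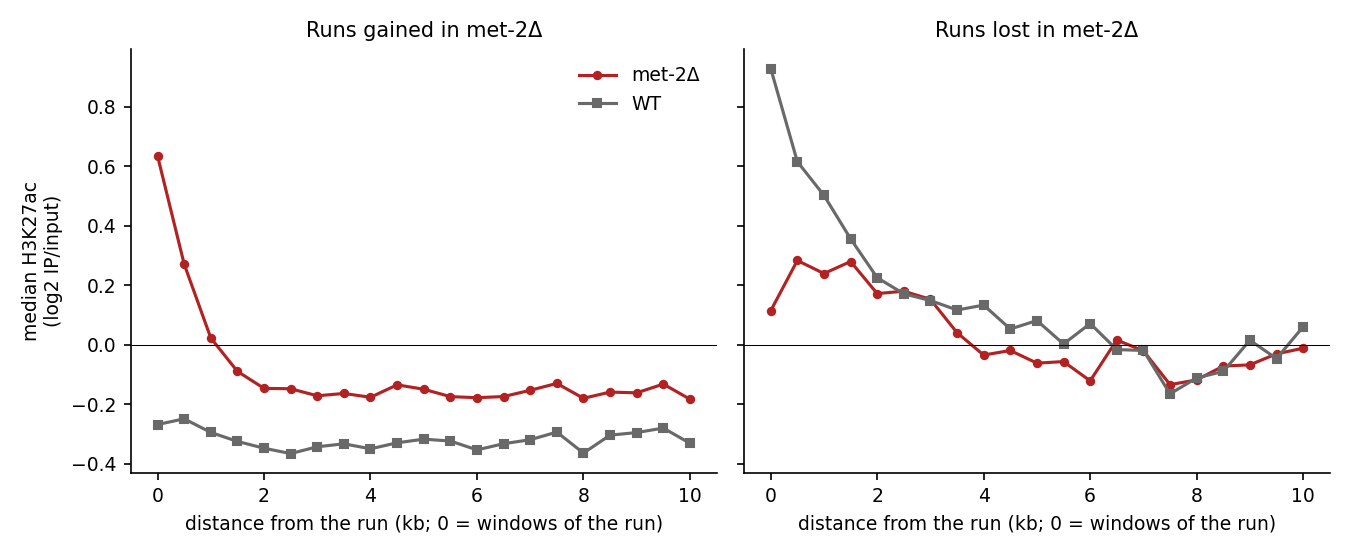
Median H3K27ac enrichment (log2 IP/input) in met-2Δ (red) and WT (grey) in runs of gained (left) and lost (right) windows and at 0.5-kb steps up to 10 kb on both sides. In gained runs met-2Δ was at 0.63 and WT at -0.27, and at 2 kb they were at -0.15 and -0.35. In lost runs met-2Δ was at 0.11 and WT at 0.93.

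Counts were also summed over 10-kb bins, and some bins were gained without holding a called window. Of 9917 bins, 53 were gained (0.534%) and 15 lost (0.151%), with log2FC between 0.28 and 0.93 in the gained bins. Of the gained bins 51 lay on autosome arms, which hold 49.2% of all bins, 1 in an autosome centre and 1 on X. A called window was present in 34 of them, 19 held 3 or more and 19 held none. The bin with the lowest p-value, chrV:15589909-15599908, contained most of the run around chrV:15590909, with 3429, 3886 and 3238 scaled IP reads in met-2Δ and 1787, 2078 and 1923 in WT (log2FC 0.87, SE 0.08 and adjusted p = 6.04e-11 in edgeR). The next, chrII:3339500-3349499 on the left arm of II, held 2888, 3059 and 3052 reads in met-2Δ and 1676, 1920 and 1891 in WT (log2FC 0.71, SE 0.08 and adjusted p = 6.56e-09 in edgeR). In both bins every met-2Δ library was above every WT library. The bin chrV:16549905-16559904 had 0 called windows and a log2FC of 0.58 (SE 0.07 and adjusted p = 2.31e-07 in edgeR), and chrV:17529901-17539900 and chrI:13789942-13799941 had log2FC values of 0.57 and 0.45. At 100 kb only 3 of 999 bins were gained (0.3%), all on the left arm of II between 1499507 and 2099504, with log2FC between 0.24 and 0.29, and 131 bins had an unadjusted p-value under 0.05. 0 bins of this size were lost by edgeR, and no other tool was run on them.

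The gains lay almost entirely on autosome arms, taken here as the outer 30% at each end. Of 266 autosomal gained windows, 262 (98.5%) were on arms, which hold 59.7% of tested autosomal windows. On the arms 0.272% of windows were gained and in the centres 0.00616% (4 windows, all on chromosome III). Every autosome had gains on both arms, and the share was highest on the right arm of I (0.522%), the left arm of II (0.428%) and the right arm of V (0.418%) and lowest on the left arm of V (0.0754%) and the right arm of IV (0.108%). The median gained window was 2.04 Mb from the chromosome end, against 4.15 Mb for all tested autosomal windows. The share was 0.167% within 0.25 Mb of the end, 0.389% at 0.25 to 0.5 Mb and 0.258% at 0.5 to 1 Mb. It fell from between 0.27% and 0.36% at 1 to 4 Mb from the end to 0.117% at 4 to 5 Mb, 0.0458% at 5 to 6 Mb and 0.00226% beyond 6 Mb. Chromosome X, whose outer parts had a median H3K9me2 of -0.28 in WT against 0.19 on autosome arms, had 5 gained windows of 34946 tested (0.0143%), and 3 of them formed the run chrX:122237-123736 near its left end. The lead window of that run held 250, 213 and 254 scaled IP reads in met-2Δ and 83.2, 89.1 and 83.7 in WT, a log2FC of 1.49 (SE 0.17 and adjusted p = 5.21e-11 in edgeR).

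**Figure D3:**
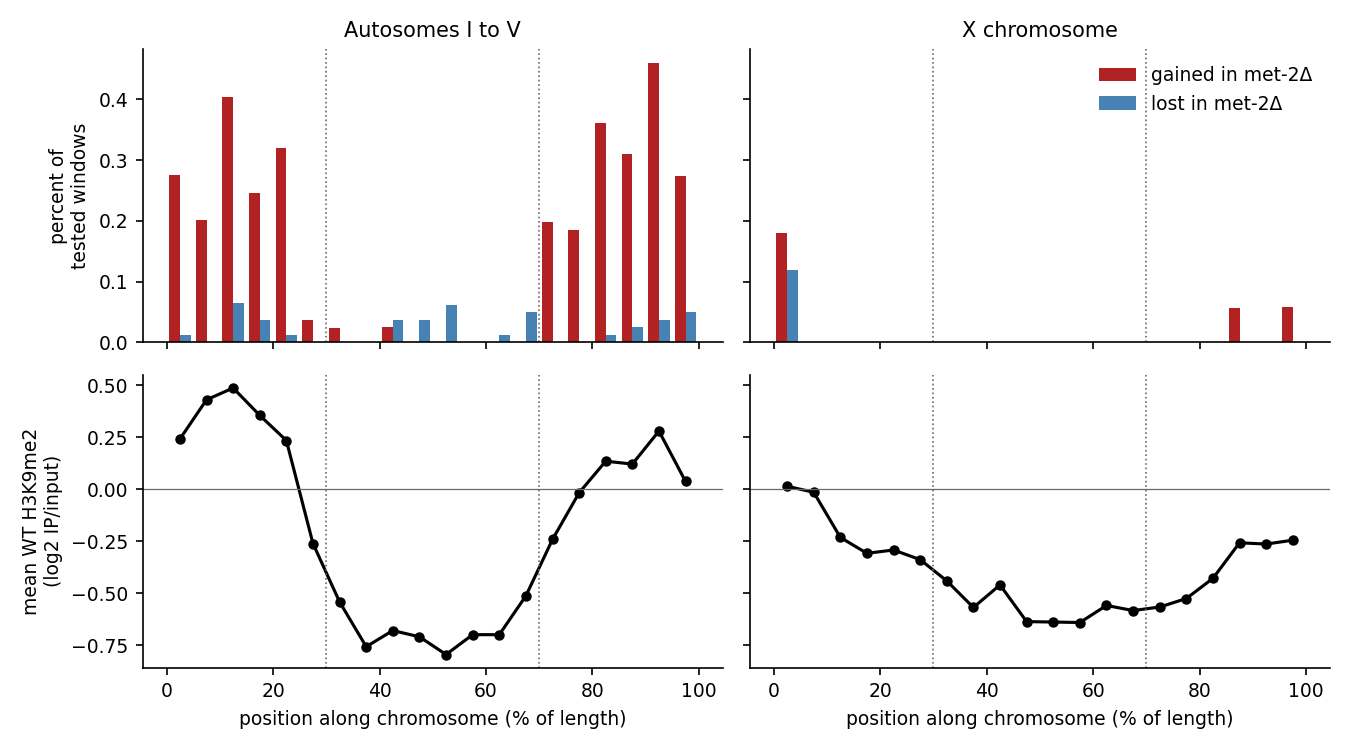
Top, percent of tested windows gained (red) and lost (blue) in met-2Δ in 5% steps along the autosomes (left) and X (right). Bottom, mean H3K9me2 enrichment in WT at the same positions, with dotted lines at 30% and 70% of chromosome length. Autosomal gains lie outside these lines except for 4 windows, and losses occur in both zones.

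The share of gained windows climbed with the level of H3K9me2 in WT. It was 0.00523% where WT H3K9me2 enrichment was below -1, 0.11% between 0 and 0.5, 0.266% between 1 and 1.5, 0.521% between 1.5 and 2, 1.08% between 2 and 3 and 1.51% (7 of 465 windows) at 3 or more. In all, 165 of the 271 gained windows (60.9%) had an enrichment of at least 1, against 16.7% of all tested windows. Only 34 were below 0 (12.5%, against 57.2%). Most H3K9me2 windows were not called, with 0.503% gained at an enrichment of 1 or more. With each of the 2 H3K9me2 replicates alone the share also rose up to an enrichment of 3, but to different levels. With replicate 1 it went from 0.0336% below -1 to 0.505% between 2 and 3, with a dip from 0.095% (-1 to -0.5) to 0.0782% (-0.5 to 0). With replicate 2 it went from 0% below -1 to 1.39% between 2 and 3. Above 3 the share was 0.76% with replicate 1 and 0.31% (1 window) with replicate 2. The H3K9me2 input of replicate 1 held 9928436 reads, 32.8% of them mitochondrial, and that of replicate 2 held 89301222, with 4.44% mitochondrial. An enrichment of 1 was reached by 26.6% of tested windows with replicate 1 and 8.80% with replicate 2. With H3K9me2 scaled by nuclear totals, the share gained was 0.0108% below -1 and 1.18% between 2 and 3.

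H3K9me2 was also grouped into domains, taken as runs of at least 3 windows with an enrichment of 1 or more. They contained 125 gained windows (46.1%), against 9.54% of tested windows and 16.9% of tested windows on autosome arms. In a domain or within 2 kb of one lay 69.0% of gained windows, against 35.7% of tested windows on autosome arms. Of the 146 gained windows outside domains, some of which had an H3K9me2 enrichment of 1 or more in shorter runs, 62 (42.5%) lay within 2 kb of a domain, against 12.7% of tested windows outside domains. Of the 3688 domains, 75 (2.03%) contained a gained window. This was true of 1.42% of domains of 3 to 4 windows and 5.20% of those of 10 to 19 windows, while the share of their windows that was gained was 0.600% and 0.615%.

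Position and H3K9me2 each went with the gains when windows were split by zone and at an H3K9me2 enrichment of 1. On autosome arms 0.627% of windows with H3K9me2 of at least 1 (159 of 25377) and 0.145% of those below 1 (103 of 70879) were gained. In autosome centres, the shares were 0.0803% (3 of 3738) and 0.00163% (1 of 61172). On the outer parts of X they were 0.111% (3 of 2701) and 0.011% (2 of 18165). The median H3K9me2 of the windows at 1 or more was 1.28 in the centres and 1.34 on the outer X, against 1.55 on the arms. In the windows below 1 it was -0.86 in the centres and -0.52 on the outer X, against -0.29 on the arms. The split thus did not hold H3K9me2 equal between zones, and its part in the difference in gains was not tested.

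**Figure D4:**
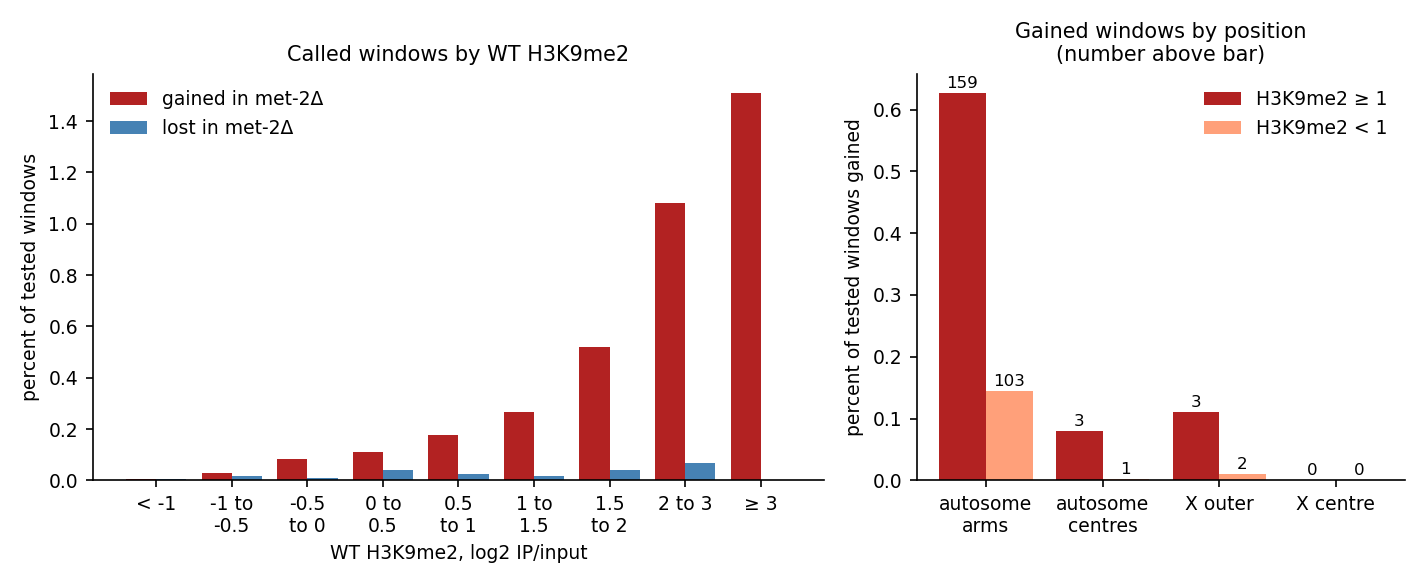
Left, percent of tested windows gained (red) and lost (blue) in met-2Δ by H3K9me2 enrichment in WT, which reaches 1.51% for gains in the highest class. Right, percent of windows gained by chromosome zone, for WT H3K9me2 of at least 1 (red) and below 1 (light), with the number of gained windows above each bar.

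The level of H3K27ac in WT was a further feature of the windows that changed. Median log2FC was 0.48 where WT enrichment was below -1 and fell in steps to -0.27 where it was 2 or more. WT libraries enter both quantities, so this slope is given as a description only. Gains were called at 0.2% of windows with WT enrichment between -0.5 and 0 and at 0 of 11846 windows at 1 or more. Within the class between -0.5 and 0, the share of gained windows was still 0.795% with H3K9me2 of at least 1 and 0.0407% with H3K9me2 below 0, although the median log2FC of these sets was alike (0.03 and 0.04). In the same class 0.416% of windows on autosome arms and 0.00339% of those in centres were gained. Few gains lay beside the H3K27ac windows of WT. Of the gained windows, 8.49% lay within 2 kb of a window with WT enrichment of at least 1, against 17.8% of tested windows on autosome arms. The WT IP libraries enter both the calls and the WT enrichment, and the tested windows include the WT H3K27ac windows themselves. The shares by WT H3K27ac and by this distance are therefore a description only.

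**Figure D5:**
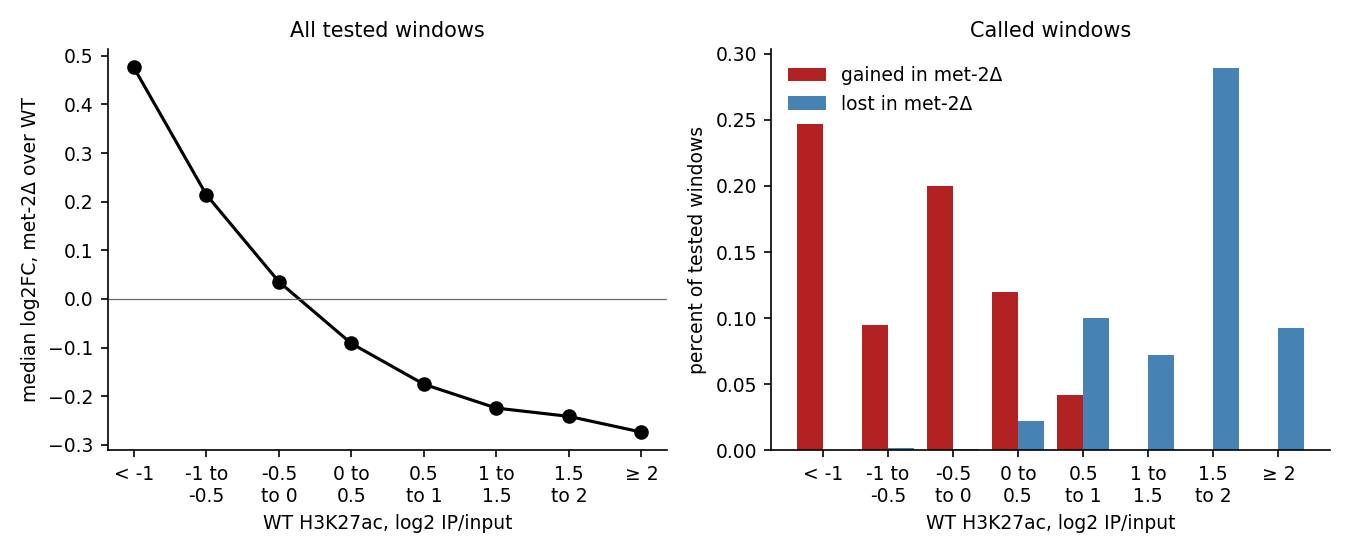
Left, median log2FC of H3K27ac (met-2Δ over WT) of all tested windows by their enrichment in WT, which runs from 0.48 to -0.27. Right, percent of windows gained (red) and lost (blue) in the same classes, with no gains at 1 or more and most losses at 0.5 or more.

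Losses were fewer. Of the 38 lost windows, 17 (44.7%) had WT enrichment of at least 1, against 6.04% of all tested windows, and 71.1% lay within 2 kb of such a window, against 19.7%. Their median enrichment was 0.11 in met-2Δ and 0.93 in WT. The WT IP libraries enter both the calls and the WT enrichment, so these values are a description only. They were spread over arms and centres (20 and 16 of the 36 on autosomes, 55.6% on arms) and 11 had H3K9me2 of at least 1 (28.9%). Low coverage was frequent, with 20 of the 38 in the lowest 10% of windows by input reads.

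The clearest loss lay in the centre of chromosome I, in the 4 windows chrI:10034458-10036457. They held 582, 540 and 562 scaled IP reads in met-2Δ and 1512, 1314 and 1057 in WT, at 676, 597 and 559 input reads in met-2Δ and 618, 666 and 568 in WT. The genotypes were thus apart in IP and overlapped in input. The lead window chrI:10034958-10035457 had a log2FC of -1.48 (SE 0.19 and adjusted p = 4.37e-09 in edgeR), with an enrichment of -0.12 in met-2Δ and 1.32 in WT, and passed in all 6 fits with 1 library less. The 10-kb bin around it, chrI:10029958-10039957, was the lost bin with the lowest p-value (log2FC -0.64, SE 0.08 and adjusted p = 8.00e-07 in edgeR). Another lost run in the centre of I, chrI:6824472-6825471, held 250, 194 and 277 IP reads in met-2Δ and 374, 566 and 430 in WT, with overlapping input, and its lead window passed in 4 of the 6 fits. For IP over input the lead window chrI:10034958 still passed (edgeR adjusted p = 2.92e-04), and chrI:6824472 did not (edgeR adjusted p = 0.0714). The bin chrI:6819972-6829971 that holds it had a log2FC of -0.49 (SE 0.07 and adjusted p = 1.08e-05 in edgeR).

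At a number of the other lost runs and windows input reads were lower as well. The 3 windows chrIII:8376067-8377566 are those of the met-2 deletion and their edges. In chrI:1976493-1977492 the IP reads were 0.449 times and the input reads 0.492 times those of WT, and in chrI:2842989-2843988 they were 0.518 and 0.695 times. The lost windows with the lowest p-value on II, IV and V, chrII:9567973-9568472, chrIV:9048805-9049304 and chrV:16731905-16732404, had IP log2FC values of -1.08, -1.27 and -4.53 and input log2FC values of -1.13, -1.13 and -4.05. Among windows without a called input difference, a choice made after the values were seen, those with the lowest p-value were chrII:3796498-3796997, chrIII:1417597-1418096, chrIV:11035797-11036296 and chrV:11327428-11327927, with IP log2FC between -1.13 and -0.93 and input log2FC between -0.55 and -0.36. None of these 4 passed for IP over input, where log2FC lay between -0.63 and -0.41 and edgeR adjusted p between 0.706 and 0.868. The lost run chrIII:13393046-13394045, also picked out after its values were seen, had 0.544 times the IP reads and 1.02 times the input reads of WT. On X the lowest was chrX:164237-164736, with 56.2, 64.2 and 76.8 IP reads in met-2Δ and 125, 164 and 97.3 in WT (log2FC -0.96, SE 0.19 and adjusted p = 0.00135 in edgeR). It passed in 3 of the 6 fits with 1 library less and not for IP over input (edgeR adjusted p = 0.803).

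Averaged over whole classes of windows the change was far smaller than at the called windows. In the 32778 windows with WT H3K9me2 of at least 1, mean H3K27ac enrichment was -0.070, -0.099 and -0.063 in the met-2Δ replicates and -0.185, -0.145 and -0.124 in the WT replicates. The genotypes did not overlap, with a difference of 0.07 (exact permutation test, two-sided, p = 0.1, which is the lowest value possible with 3 against 3). Taken within each library as the mean of these windows minus that of all windows, the values were 0.011, 0.045 and -0.0064 in met-2Δ and -0.013, 0.0040 and -0.0045 in WT, which overlapped (difference 0.02, exact permutation p = 0.3). On autosome arms the means were -0.084, -0.130 and -0.059 in met-2Δ and -0.212, -0.162 and -0.135 in WT (difference 0.08, exact permutation p = 0.1). In autosome centres they were -0.059, -0.119 and -0.029 in met-2Δ and -0.100, -0.092 and -0.067 in WT, which overlapped (difference 0.02, exact permutation p = 0.6). Over all windows the difference was 0.05 (exact permutation p = 0.2).

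Arms and centres drew closer together in met-2Δ. The arm mean minus the centre mean was -0.025, -0.011 and -0.030 in met-2Δ and -0.112, -0.070 and -0.068 in WT, with no overlap (difference 0.06, exact permutation p = 0.1). This contrast is taken within each library, so that the scaling factor of the library cancels apart from the pseudocount. It was also seen in windows of low H3K27ac, chosen in the met-2-CD and WT 37 °C libraries at a mean enrichment between -0.5 and 0. There the arm mean minus the centre mean was 0.001, 0.019 and -0.016 in met-2Δ and -0.077, -0.047 and -0.044 in WT (difference 0.06, exact permutation p = 0.1). In the windows of low H3K27ac, the mean at H3K9me2 of at least 1 minus that at H3K9me2 below 0 was -0.083, -0.081 and -0.088 in met-2Δ. In WT it was -0.164, -0.119 and -0.115, with no overlap (difference 0.05, exact permutation p = 0.1). These contrasts were added after the calls had been seen. At WT H3K27ac windows the mean enrichment was 1.21, 1.47 and 1.04 in met-2Δ and 1.60, 1.48 and 1.36 in WT. The genotypes overlapped, with a difference of -0.24 (exact permutation p = 0.2) that was -0.18 (p = 0.3) in windows chosen in the met-2-CD and WT 37 °C libraries instead. The share of IP reads in H3K27ac regions (windows whose enrichment reached 1 in 2 or more of the 12 IP and input pairs) was 21.8%, 25.8% and 19.4% in met-2Δ and 27.6%, 25.2% and 23.5% in WT. Within each genotype it orders the libraries as this mean does, and its part in the class means was not tested.

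The called windows were also looked up in libraries left out of the test. When a replicate was left out of the test and its own reads were then looked up in the windows called without it, each met-2Δ replicate was above all 3 WT replicates in 155 of 155, 86 of 86 and 220 of 222 gained windows, with median log2 ratios over the WT mean of 0.91, 1.19 and 0.76. Each WT replicate was below all 3 met-2Δ replicates in 141 of 145, 146 of 146 and 158 of 160. The replicates of the opposite genotype were used in both steps, so a high share is partly built in. The look-up checks the library left out and not the whole comparison, and the matching share over all tested windows is not given. Fewer windows were gained with a library less, with 100 gained without met-2Δ replicate 2, 234 without met-2Δ replicate 3, a count between these without met-2Δ replicate 1, and 157, 160 and 171 without WT replicate 1, 2 and 3. The lost windows then numbered 16, 29 and 59 without a met-2Δ replicate and 53, 21 and 47 without a WT replicate.

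In the gained windows, median H3K27ac enrichment was 0.63 in met-2Δ, 0.25 in met-2-CD, 0.43 in WT at 37 °C and -0.27 in WT. In the lost windows, it was 0.11 in met-2Δ, 0.60 in met-2-CD, 1.06 in WT at 37 °C and 0.93 in WT. The windows were chosen for the difference between met-2Δ and WT, and the met-2-CD and 37 °C values are given as levels only.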

How the data were processed

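Early-embryo chromatin was sequenced as paired ends of 50 bp. The authors used QuasR with bowtie for alignment to ce10 and retained reads with a unique position. The deposited values are raw counts in 500-bp windows. Both mates were counted, so reads are not independent molecules. Samples were grouped by label.

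Counts were scaled by library totals to the mean library, with a pseudocount of 2 for log2 ratios. The met-2Δ term was fitted with edgeR 4.0.16 (R 4.3.3) to the 12 H3K27ac IP libraries of 4 groups, and the same fit was made for inputs and for bins. A 10-kb bin needed 10 of its 20 windows past the input minimum. Class means were compared by exact permutation tests. The pipeline was tested on simulated data. Alternatives included TMM, background scaling, loess with limma 3.58.1, DESeq2 1.42.0 (for input with a mean dispersion fit), IP over input, other minima and each replicate left out.

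Windows named are the 2 deleted windows, the 10 longest gained and 5 longest lost runs, the lowest p-value per chromosome with replicates outside the WT range, and the 5 gained and 2 lost 10-kb bins with the lowest p-value. The comparison, tests and lists were chosen with earlier results of these data known. Genes and sequences are not given because no ce10 annotation was used here.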

Additional observations from a re-analysis of the deposited data

Results flagged for a closer look

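The input libraries, which the comparison of IP counts does not use, differed between genotypes in at least 2 windows of 5 called runs. Input reads in met-2Δ were 1.94 times those of WT in chrV:17254402-17260401 and 4.48 times in chrII:10122970-10124469. They were 0.069 times those of WT in chrIII:8376067-8377566, which holds the met-2 deletion, 0.496 times in chrII:9567973-9568972 and 0.565 times in chrV:18764896-18765895. IP reads in these runs were 2.49, 5.04, 0.0721, 0.504 and 0.513 times those of WT.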

How the results depend on the processing

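All 271 gained windows without a called input difference kept a log2FC above 0 in each alternative in which they were tested. The alternatives use the IP counts that made the calls, so the kept direction is largely built in and is a description only. On autosomes between 94.9% and 100% of gained windows lay on arms. The number of gained windows was 184 with DESeq2 and library totals, 186 with DESeq2's size factors, 162 with TMM and 140 with background scaling. It was 454 with loess, 533 at an FDR under 0.05 and 20 for IP over input. For IP over input 270 of the 271 had an unadjusted p-value under 0.05 in edgeR, again from the IP counts that made the calls. The matching share over all tested windows is not given. With the libraries of the 2 genotypes alone, 416 windows were gained and 112 lost. Lost windows numbered 147 at an FDR under 0.05 and 2 for IP over input. With DESeq2, 108 10-kb bins were gained and 34 lost, and with TMM 9 were lost. Of 100-kb bins, 3 were gained and 0 lost with edgeR. Gained windows in runs made up 68.8% with gaps of up to 2 kb, those on arms 90.7% with the outer 25% as arms (49.7% of tested windows), and those with H3K9me2 74.0% at 0.5 or more (28.9% of tested), 52.6% with H3K9me2 replicate 2 (8.80%) and 49.5% with nuclear totals (10.9%, an alternative chosen after seeing the data). DESeq2 called 45 input windows.

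With each replicate left out, gained windows numbered 100 to 234 and lost windows 16 to 59, gained 10-kb bins 15 to 42 and lost ones 4 to 13, and differing input windows 40 to 227. The share in runs was 45.2% to 62.8%, on arms 94.9% to 97.0% and with H3K9me2 51.6% to 60.7%.

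For IP over input, 16 of the 27 named windows kept their direction without passing, 6 still passed and 5 changed sign. The log2FC changed sign at chrI:1976993 (0.043), chrII:9567973 (0.031), chrII:10123470 (-0.014) and in the deleted windows at chrIII:8376567 (2.66) and chrIII:8377067 (3.00). The input test had passed in each of these.

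Replicates of the same number did not deviate together (r = 0.006, 0.022 and 0.168). With the replicate number as a block, 317 windows were gained and 70 lost, 62 and 21 10-kb bins, and 125 input windows differed. The differences of the class means within numbers stayed at 0.07, -0.24 and 0.08 (exact sign-flip test, p = 0.25, the smallest for 3 pairs).

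Scaling to library totals cannot show a uniform change of H3K27ac. At this depth changes of single windows under a log2FC of about 0.73 were not called. The cause of the other differences between settings was not tested.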

Other observations

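By chromosome, 0.233% of tested windows were gained on I, 0.193% on II, 0.14% on III, 0.12% on IV, 0.148% on V and 0.0143% on X, without windows of differing input. Lost windows were 14 on I, 7 on II, 6 on III, 2 on IV, 7 on V and 2 on X. In the lowest 10% of windows by input reads 0.153% were gained and 0.102% lost, and in the highest 10% 0.0255% and 0.0204%.

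Of the 53 gained 10-kb bins, 16 (30.2%) had a mean WT H3K9me2 of at least 1, against 6.42% of tested bins. The 15 lost bins comprised 5 on autosome arms and 10 in autosome centres.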
